A study of Oryza sativa with 2 samples.

Results

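Proton pumps energise the membranes of plant cells. Those described here are 9 rice gene models, of 55986 in the deposited count table, picked by locus identifier under a rule that uses no measured value, though with earlier results of these data known. They are the vacuolar pyrophosphatase genes OVP1, OVP2 and OVP3, the genes of subunits A and B of the vacuolar H+-ATPase (VHA-A and VHA-B), and the plasma membrane H+-ATPase genes OSA1, OSA2, OSA3 and OSA7. RNA came from seedlings of the cultivar CARI Dhan 7 at 14 days. The control seeds germinated in distilled water (0 dS/m), and the salinity seeds in a solution of NaCl, Na2SO4, CaCl2 and MgSO4 with an electrical conductivity of 6 dS/m. Each group is 1 library, and the labels do not say how many plants went into it or which organs. Each comparison below is therefore one of libraries, without a check by replicates and without p-values.

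As background, the pyrophosphatase and the H+-ATPase of the vacuole both pump protons from the cytosol into the vacuole, the first by splitting pyrophosphate and the second by splitting ATP. Sodium/proton antiporters of the vacuolar membrane use that gradient to move sodium into the vacuole. Plasma membrane H+-ATPases pump protons out of the cell, which drives nutrient uptake and sodium export by antiporters there. Their C-terminal tail holds the pump back until the penultimate threonine is phosphorylated and a 14-3-3 protein binds.

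The data show a difference within the plasma membrane class and between the vacuolar classes. OSA1 and OSA2 were 4.84-fold and 4.38-fold higher in the salinity library, whereas the more abundant OSA7 was close to level and OSA3 a little below it. Of the vacuolar pyrophosphatase genes, OVP2 was 2.38-fold lower in the salinity library, and OVP1 and OVP3 had smaller ratios below 1. VHA-A and VHA-B were 1.26-fold and 1.29-fold above the control and stood in nearly the same proportion to each other in both libraries. A gene counted as higher or lower when the whole 95% counting interval of its ratio lay beyond 2-fold. That size rule was met by 2 of the 9 genes on the higher side and by 1 on the lower side, and the other 6 did not meet it (within the range). Among the 26638 tested models, those whose counts summed to 10 or more, which include all 9 genes, 7.97% were higher and 5.17% were lower. The tested models include some with few counts and wide intervals, such as LOC_Os01g11480, within the range at 105 control and 0 salinity counts. LOC_Os01g11670 was higher at 0 control and 12 salinity counts, so at low counts the rule is met more easily on the higher side. The higher and the lower share are therefore not directly comparable with each other. These shares, and the standing of log2 ratios among the tested models below, therefore compare genes measured with unlike precision.

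The libraries held 45359020 (control) and 15031328 (salinity) counts. No odd count occurred under salinity, 70.6% of the values above 0 there were multiples of 4, and 61.7% of the control values above 0 were even. Every other whole number is even, and every other even number is a multiple of 4. Part of the 70.6% and of the 61.7% thus arises without pairing. Intervals rest on read pairs, a scale inferred from the values, with 2 control or 4 salinity counts taken as 1 pair. Why a salinity pair would take 4 counts is not known. In units of 1e6, the scale gives 22.68 and 3.76 pairs. The intervals cover counting error only, since each group has 1 library. Without molecular identifiers, duplicate PCR reads cannot be told from separate molecules, so the intervals may be too narrow. CPM are counts per 1e6 scaled counts after scaling of the libraries with trimmed means (TMM). Levels compared between genes are TPM, which also divide by exon length, on the same TMM scaling. In RNA from seedling material of many cells, fewer cells of a type and less RNA per cell cannot be told apart. The summed level of the root markers Lsi1, Lsi2 and NRT2.1 was 587.6 (control) and 662.3 (salinity) CPM, and that of the leaf markers CAB1R and CAB2R was 15352 and 20115 CPM. For the grain markers AMY1A, AMY3D, GLUA1 and GLUA2 the sums were 1405 and 9.01 CPM, of which AMY1A alone gave 1390 CPM in the control. The other grain markers were within the range, AMY3D at -0.73, GLUA2 at -0.55 and GLUA1 at -4.39. GLUA1 rested on 19 control and 0 salinity counts, and the upper limit of its interval was 1.77. Of the 9 markers AMY1A and GLUA1 had 0 salinity counts, AMY1A after 68861 in the control. A count of 0 there allows up to 3 read pairs, or 0.872 CPM. The markers of one organ did not move together. Of the root markers, NRT2.1 was higher, with a log2 ratio of 1.98 (interval 1.48 to 2.48), whereas Lsi1 at 0.48 and Lsi2 at -0.64 were within the range on opposite sides. Of the leaf markers, CAB1R was at 0.77 and CAB2R went from 8604.6 to 8602.5 CPM. The part of seedling make-up in the pump ratios was not tested.

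**Figure D1:**
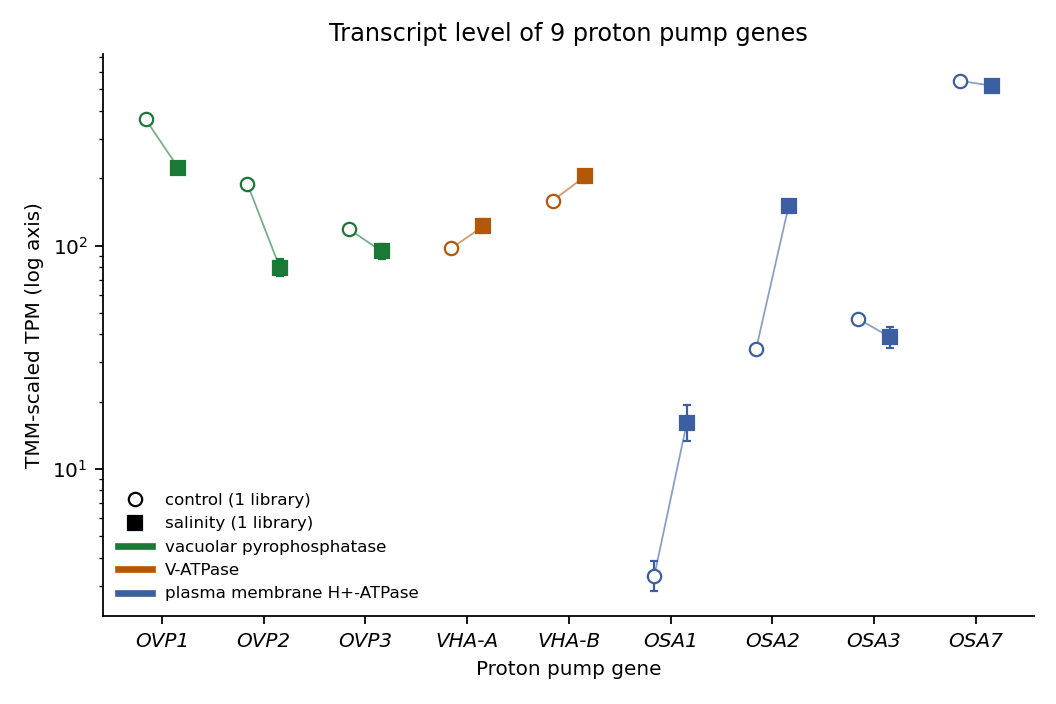
Transcript level of each proton pump gene in TMM-scaled TPM on a log axis, with open circles for the control library and filled squares for the salinity library. Bars are exact 95% Poisson intervals of the read pairs, and colours mark the pump class. OSA1 runs from 3.32 to 16.1 TPM and OSA2 from 34.3 to 150.0 TPM, while OSA7 stays the most abundant of the 9 at 547.04 and 519.4 TPM.

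Among the 4 plasma membrane H+-ATPase genes measured here, OSA7 had the highest level in both libraries. Further genes of this class were not analysed here. OSA7 (LOC_Os04g56160, chromosome 4, 33457745 to 33464933, plus strand, in the coordinates of the deposited table) encodes a pump known in rice for its role in guard cells. It had 64493 control and 17018 salinity counts, which is 1302 and 1236 CPM. The log2 ratio was -0.07 (interval -0.12 to -0.03), so the level was 1.05-fold higher in the control library. Ranked by TPM among all gene models of the table, OSA7 stood at place 191 in the control and 241 under salinity.

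OSA2 (LOC_Os07g09340, chromosome 7, 4914608 to 4920788, plus strand) encodes another pump of this class. Its counts were 3686 (control) and 4484 (salinity), which are 1843 and 1121 read pairs. On the scaled measure that was 74.4 and 325.8 CPM, for a log2 ratio of 2.13 (interval 2.02 to 2.24). Of all tested gene models, 94.5% had a lower log2 ratio. OSA2 moved from place 4868 to place 1075 in the ranking by TPM, and among the 9 pump genes from place 8 to place 4.

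OSA1 (LOC_Os03g48310, chromosome 3, 27510164 to 27517321, plus strand) is a plasma membrane pump gene that has been overexpressed in rice to raise nutrient uptake. It was the least abundant of the 9 in both libraries, at 346 control and 466 salinity counts, or 6.99 and 33.9 CPM. Its log2 ratio of 2.27 had the widest interval of the 9, from 1.93 to 2.62, because it rested on 173 control read pairs and 116.5 salinity read pairs. That ratio was above those of 95.1% of the tested gene models. The ratios of OSA1 and OSA2 were not distinguishable at this depth. The fold of OSA1 was 1.10 times that of OSA2 (interval 0.861 to 1.41), a comparison in which the library scaling cancels.

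OSA3 (LOC_Os12g44150, chromosome 12, 27386953 to 27394090, plus strand), also a plasma membrane pump gene, had 5804 control and 1332 salinity counts. These are 117.2 and 96.8 CPM, with a log2 ratio of -0.28 (interval -0.44 to -0.11). OSA3 was thus within the range, on the control side. The fold of OSA2 exceeded that of OSA3 by a factor of 5.30 (interval 4.63 to 6.07) and that of OSA7 by 4.61 (interval 4.25 to 4.999), and no scaling of the libraries can alter these factors. In the control library OSA3 stood above OSA2, whose TPM was 0.728 times as high, and in the salinity library OSA2 stood above OSA3, at 3.86 times its TPM.

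The make-up of the plasma membrane class differed accordingly. OSA7 held 86.6% of the summed TPM of these 4 genes in the control and 71.7% under salinity. The share of OSA2 was 5.43% in the control and 20.7% under salinity. OSA1 went from 0.526% to 2.22%, and OSA3 from 7.45% to 5.36%. Counted in read pairs without regard to length, OSA2 had 4.96% of the class in the control (exact Clopper-Pearson interval 4.74% to 5.19%) and 19.2% in the salinity library (interval 18.2% to 20.3%), so the intervals lie far apart. The summed level of the class was 631.7 TPM in the control and 724.4 TPM under salinity, 1.15-fold above it, a log2 ratio of 0.20 that became -0.056 when libraries were scaled by total counts. The sum thus changes sign with the scaling, whereas the shares do not depend on it.

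**Figure D2:**
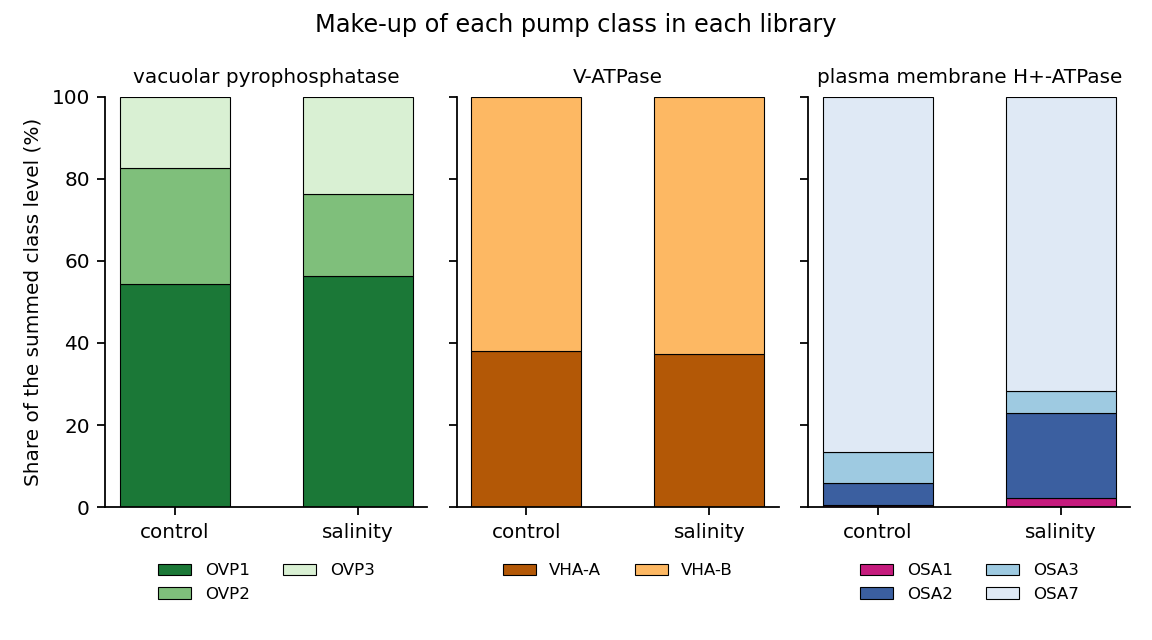
Share of each gene in the summed TPM of the measured genes of its class, in percent, for the control and the salinity library (1 library each). In the plasma membrane class OSA2 takes 5.43% and 20.7%, while VHA-A keeps 37.95% and 37.4% of the V-ATPase pair.

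The 3 vacuolar pyrophosphatase genes measured here all had ratios below 1, and further genes of this class were not analysed. This pump is a single polypeptide, so each gene can give a complete subunit. OVP1 (LOC_Os06g43660, chromosome 6, 26272897 to 26278666, plus strand) was the most abundant of these 3, with 36836 control and 6220 salinity counts, or 743.7 and 451.9 CPM. Its level was 1.65-fold higher in the control library, with a log2 ratio of -0.72 (interval -0.79 to -0.64), which leaves it within the range of the size rule. It passed as lower when the rule asked for an interval beyond 1.5-fold.

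OVP2 (LOC_Os06g08080, chromosome 6, 3919501 to 3924409, plus strand) was the member of the 9 that passed as lower. Its counts were 17044 in the control and 1992 under salinity, or 344.1 and 144.7 CPM. The log2 ratio was -1.25 (interval -1.38 to -1.12), and 16.7% of tested gene models had a lower one. Its place in the ranking of gene models by TPM went from 767 in the control to 2192 in the salinity library.

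OVP3 (LOC_Os02g55890, chromosome 2, 34210400 to 34215008, minus strand) had 10597 control and 2344 salinity counts, or 213.9 and 170.3 CPM. Its log2 ratio of -0.33 (interval -0.45 to -0.21) was within the range. Within the class the folds of the 3 genes differed beyond counting error. OVP3 exceeded OVP2 by a factor of 1.89 (interval 1.67 to 2.14) and OVP1 by 1.31 (interval 1.19 to 1.45). OVP2 held 28.0% of the summed TPM of these 3 genes in the control and 20.0% under salinity, OVP3 17.5% and 23.7%, and OVP1 54.5% and 56.2%. Summed over these 3 genes, the level was 675.2 TPM in the control and 397.1 TPM under salinity, which is a log2 ratio of -0.77. With total-count scaling it was -1.02.

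Subunits A and B form the head of the vacuolar H+-ATPase, in which subunit A carries the ATP-splitting sites and subunit B alternates with it. VHA-A (LOC_Os06g45120, chromosome 6, 27286243 to 27292852, minus strand) had 8468 control and 2960 salinity counts, or 171.0 and 215.04 CPM. VHA-B (LOC_Os06g37180, chromosome 6, 21963107 to 21968776, minus strand) had 10348 and 3706 counts, or 208.9 and 269.2 CPM. Both genes lay above the control, VHA-A by 0.33 on the log2 scale (interval 0.22 to 0.44) and VHA-B by 0.37 (0.26 to 0.47), and neither left the range. With total-count scaling these were 0.08 and 0.11. Further genes of the vacuolar H+-ATPase were not analysed here.

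VHA-B stood at 1.64 times the TPM of VHA-A in the control and 1.68 times under salinity. The ratio between their folds was 1.02, with an interval of 0.922 to 1.14, so no shift between these genes was detectable at this depth. Their summed level was 255.6 TPM in the control and 326.4 TPM under salinity, which is a log2 ratio of 0.35 (0.10 with total counts). In the control library the pyrophosphatase sum stood above the sum for these V-ATPase subunits by 419.6 TPM, and in the salinity library by 70.7 TPM. The A and B subunits occur in several copies per pump and the pyrophosphatase is a dimer of 1 polypeptide, so these sums do not count pumps.

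**Figure D3:**
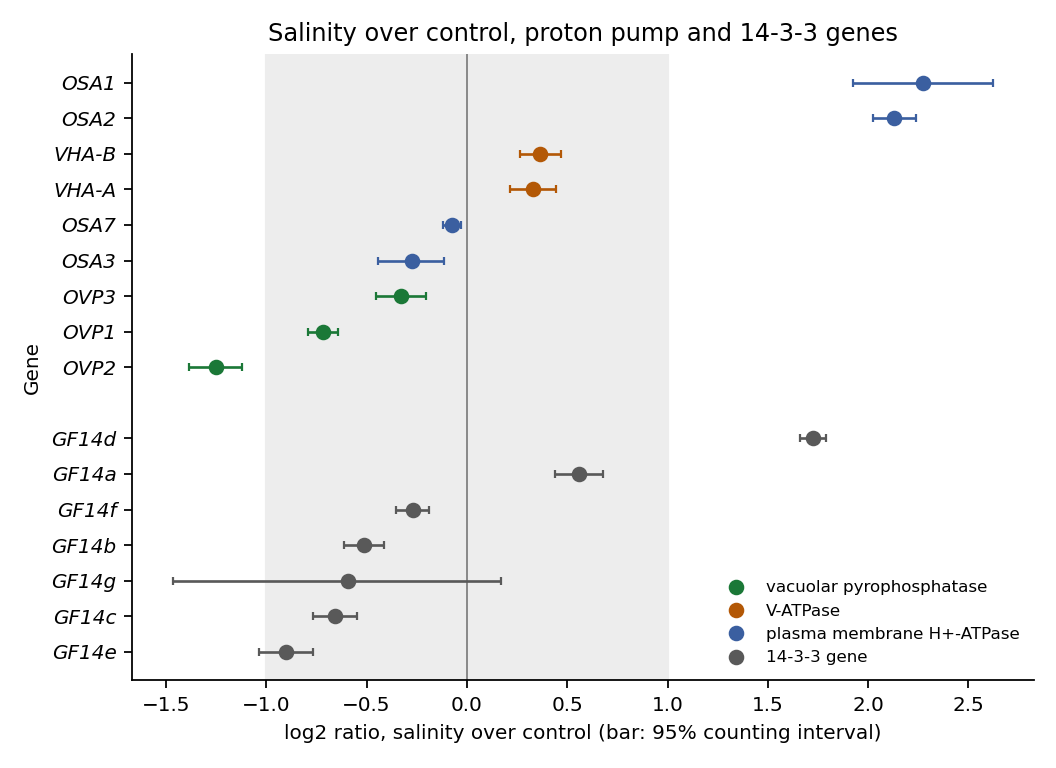
Log2 ratio of scaled counts, salinity over control, for the 9 proton pump genes (colours by class) and 7 genes of 14-3-3 proteins (grey). Bars are 95% counting intervals and the shaded band is the 2-fold range. OSA1, OSA2 and GF14d lie wholly to the right of the band and OVP2 wholly to the left.

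In the order of TPM, the control library ran OSA7, OVP1, OVP2, VHA-B, OVP3, VHA-A, OSA3, OSA2 and OSA1, and no intervals of neighbours overlapped. The gap was widest at the bottom, where OSA2 stood 10.3-fold above OSA1. In the salinity library the order was OSA7, OVP1, VHA-B, OSA2, VHA-A, OVP3, OVP2, OSA3 and OSA1. There the intervals of OVP1 and VHA-B overlapped, at 223.4 and 204.4 TPM, as did those of OVP3 and OVP2, at 94.2 and 79.6 TPM.

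Set against all tested gene models, whose median log2 ratio was -0.09, the 9 genes had a median of -0.07. Scaling by total counts moved the median of all genes by -0.25. With the median of all tested models subtracted, log2 ratios were 2.37 for OSA1, 2.22 for OSA2, 0.46 for VHA-B, 0.43 for VHA-A, 0.02 for OSA7, -0.18 for OSA3, -0.23 for OVP3, -0.62 for OVP1 and -1.15 for OVP2. Summed over all 9 genes, the level was 1562 TPM in the control and 1448 TPM under salinity.

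**Figure D4:**
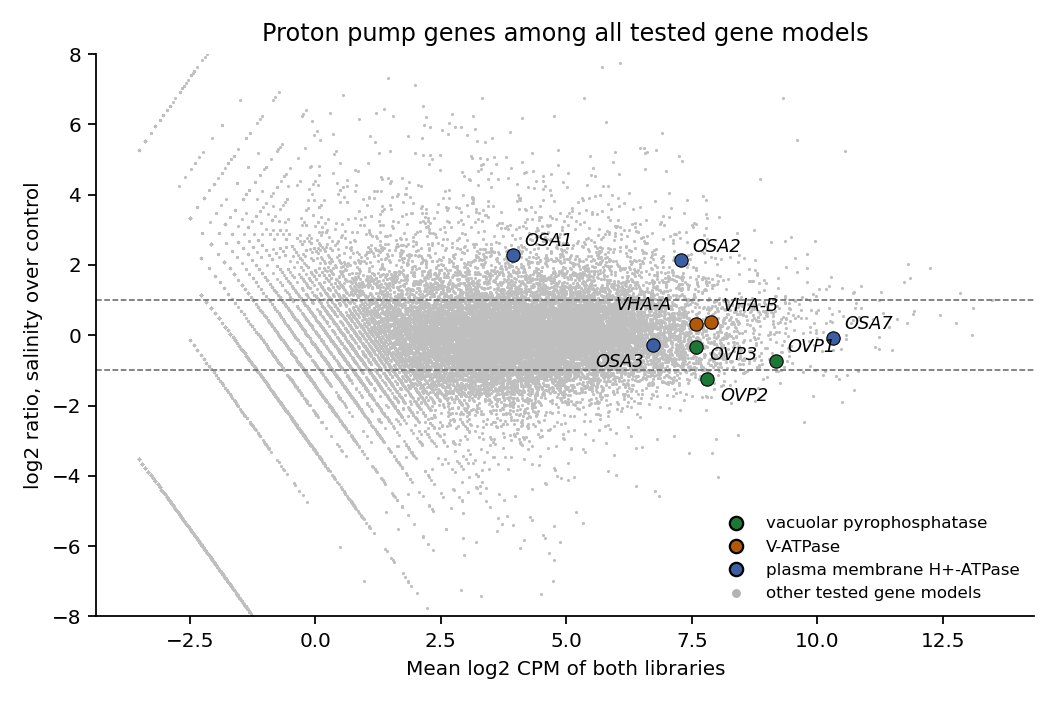
Log2 ratio, salinity over control, against the mean log2 CPM of both libraries for the tested gene models (grey) and the proton pump genes (coloured by class). Dashed lines mark 2-fold, and 118 models lie outside the axis. OSA1 and OSA2 sit above the upper line at log2 ratios of 2.27 and 2.13, and OVP2 below the lower one at -1.25.

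Genes of 14-3-3 proteins, the partners of the plasma membrane pump, were measured for 7 loci, GF14a to GF14g. The size rule was met by 1 of 7 on the higher side, where 7.97% of all tested models met it, and by 0 on the lower side, where 5.17% did. Their median log2 ratio was -0.51 against -0.09 for all tested gene models. GF14d (LOC_Os11g34450) was the higher one, with 243.1 (control) and 804.2 (salinity) CPM and a log2 ratio of 1.73 (interval 1.66 to 1.79). GF14f, the most abundant of the 7 in the control, was at 485.2 and 402.3 CPM, with a log2 ratio of -0.27. GF14a stood at 0.56, while GF14b, GF14c and GF14e stood at -0.51, -0.66 and -0.90. GF14g rested on 326 control and 60 salinity counts, and its interval of -1.46 to 0.17 covers no change. In TPM, GF14d was below GF14f in the control, at 253.2 against 414.1 TPM, and above it under salinity, at 837.8 against 343.4 TPM. The proteins act on several targets besides the pump, and nothing here measures binding.

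The gene models differ in build, but only the pyrophosphatase class is set apart by its number of exon blocks. The pyrophosphatase genes each have 8 separate exon blocks, with exon lengths of 2859 to 3199 bases. VHA-A has 19 blocks and VHA-B 15. OSA1 and OSA2 have 21 blocks each, OSA3 has 22 and OSA7 has 15, with OSA7 the longest span at 7189 bases. None of the 9 shares exon bases with another model of the table, so overlapping annotation does not split their counts. Reads that match 2 related pump genes alike could still have been divided or dropped, since how the authors counted such reads is not given in the sources.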

How the data were processed

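Messenger RNA was enriched from 800 ng of total RNA per sample with poly(A) selection before library preparation, per the labels' protocols. The authors deposited whole-number counts per gene model with exon positions and exon length in bases. Per the submitters' processing notes, FastQC, MultiQC, STAR, featureCounts and DESeq2 were used. Their versions and settings, strand included, and the genome build and annotation are not given in the sources. Counting both mates one by one can account for 2 counts per pair. Why the salinity column calls for 4 is unknown, and that part of the scale rests on the values alone.

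Scaling used the TMM method (R 4.3.3, edgeR 4.0.16) over models with at least 10 counts. TPM were multiplied by 1 constant for both libraries. Log2 ratios use a prior count of 0.5, scaled to library size. Ratio intervals are exact conditional binomial (Clopper-Pearson) at 95%, and intervals of the factor between folds come from the log odds ratio. Other steps ran in Python 3.11.15 with scipy 1.17.1, numpy 2.4.6, matplotlib 3.10.9 and pandas 2.3.3. DESeq2 1.42.0 gave alternative size factors. The procedure was tested on simulated data. These were Poisson read pairs multiplied by the same counts per pair as assumed here. That test could therefore not check the read-pair scale, duplicate reads or variation between libraries.

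The members, lists and the read-pair scale were chosen with earlier results of these data known. All 9 members, the 14-3-3 genes and the seedling-part markers are named. Names were looked up in RefSeq (assembly ASM3414082v1), requiring the name, chromosome, gene order and a span within 25%. OSA7, 7 of 8 listed 14-3-3 genes and 9 of 10 markers were found, and the other 8 member names rest on a hand-written list. A list of 14 further pump loci had 0 found and was not analysed here. Protein and promoter sequences were not used here.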

Additional observations from a re-analysis of the deposited data

How the results depend on the processing

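All 9 members kept their call under 11 alternatives, except that OVP1 became lower with an interval beyond 1.5-fold, which makes 2 members lower. The alternatives that changed only the prior count could not change a call, since calls rest on intervals that hold no prior. Member log2 ratios left their counting interval in 9 of 81 cases, 8 of them with total counts. The other was OSA7 with at least 50 counts, at -0.03. Log2 ratios could not move with deposited counts, since that alternative changes only the intervals. No called member changed sign. Total counts gave class log2 ratios of -1.02 for the pyrophosphatases, 0.10 for the V-ATPase subunits and for the plasma membrane pumps a ratio of -0.056, and upper-quartile factors gave 0.16 for the last. These changes follow from the scaling alone. Over all tested models, lower calls numbered 1376 as reported (39.3% of calls), 2127 with total counts (56.5%) and 2755 with deposited counts (49.3%). An interval beyond 1.5-fold gave 3408 higher and 2803 lower, and a point estimate beyond 2-fold gave 4241 and 5622 (57.0% lower). That these looser rules gave more calls follows by construction. The changed split is in part built in as well, since a point estimate calls models lower that have few control and 0 salinity counts. LOC_Os01g01925, at 10 control and 0 salinity counts, is 1 such model, with a log2 ratio of -3.53 and an upper limit of 2.97. How much of the split this makes up was not tested. Of 18 shares, 12 moved beyond counting error without division by exon length. For example, VHA-A went from 37.95% to 45.0% in the control. Adding further pumps to the classes was not run, because none was found in the name table, and protein identity and promoter motifs were not run without sequences. No paired analysis was possible because each group has 1 library, and for the same reason no replicate could be left out. Among the 9 members, OSA1 had the widest interval, at 173 control and 116.5 salinity read pairs.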

Other observations

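Of all tested models, 7.97% were higher and 5.17% lower, and a window of 10 models beside a gene is too small to compare with those shares. Among the 5 tested models on each side, 1 of 10 was higher around OSA1, with log2 ratios from -1.02 to 1.54 and a median of 0.41. Around OSA2, 1 of 10 was higher and 1 lower, with log2 ratios from -3.53 to 1.95 and a median of -0.20. The neighbours of OVP2 included 1 higher and 0 lower, with a median of -0.77. Around OVP3 and VHA-A 1 was higher and 0 lower, and around OSA3 1 was higher and 1 lower. The window of OSA7 held 2 higher and 0 lower, that of VHA-B 0 and 2, and that of OVP1 0 and 0. These windows were chosen after the values of the pump genes had been seen.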
